A study of Mus musculus with 8 samples.

Results

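The sterol and fatty acid synthesis genes are 36 named mouse genes of cholesterol synthesis, fatty acid synthesis and the transcriptional control of both, listed by symbol. All 36 were found among the 24421 gene symbols of the count table, and all 36 were among the 13722 genes with enough counts to be tested. RNA was sequenced from C57BL/6 mouse bone marrow cells of the lines MAflox and MATIP, both carrying MLL-AF10, a leukaemia fusion of a histone methyltransferase with the chromatin protein AF10. Both lines grew in semisolid methylcellulose medium with the cytokines SCF, IL-3 and GM-CSF, and each received either 100 nM 4-hydroxytamoxifen (4-OHT) or its ethanol solvent (EtOH) for 4 days. The 4 groups, with 2 libraries each, were therefore MAflox EtOH, MAflox 4-OHT, MATIP EtOH and MATIP 4-OHT. The MATIP line carries Tip60 flox/flox alleles (Tip60, a histone acetyltransferase, is the product of Kat5) together with Cre-ERT2, which recombines floxed alleles once 4-OHT is present. MAflox cells are named only as MLL-AF10 flox cells, and the labels do not give what is floxed, which promoter drives Cre-ERT2, or whether MAflox cells carry it. The labels name no cells that received 4-OHT without Cre-ERT2, so recombination and an action of 4-OHT itself cannot be told apart. Separate cultures are not stated for the libraries of a group, so the p-values rest on the spread between these samples alone, and that spread may be technical.

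Cholesterol is built from acetyl-CoA through the mevalonate pathway, which makes farnesyl diphosphate, and then through squalene and lanosterol. The transcription factors SREBP-1 and SREBP-2 (genes Srebf1 and Srebf2) switch on these enzymes and those of fatty acid synthesis: when membrane sterol is low, SCAP escorts the SREBPs out of the endoplasmic reticulum, and when it is high, INSIG proteins hold them there. The liver X receptors (LXR) answer the opposite state, since oxysterols activate them to raise sterol export through the transporters ABCA1 and ABCG1, above all in macrophages.

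The libraries held 41101309 to 57312490 counts and 14380 to 15822 detected genes. Levels are given as CPM, counts scaled to library size. The words rose, fell and changed are kept for genes whose p from edgeR's quasi-likelihood test was under 0.05 after Benjamini-Hochberg adjustment over all 13722 tested genes. The value after ± beside a log2 fold change is its standard error. Kat5, the floxed gene of MATIP cells, stood at 41.1 and 41.2 CPM in MATIP EtOH and at 8.11 and 8.32 CPM in MATIP 4-OHT, against 43.7 and 41.2 CPM in MAflox EtOH and 57.5 and 62.5 CPM in MAflox 4-OHT. Markers of maturing myeloid cells moved with treatment: the summed level of 13 monocyte and macrophage markers was 1070 to 1120 CPM in MAflox EtOH, 7760 CPM in MAflox 4-OHT, 1480 to 1500 CPM in MATIP EtOH and 38900 to 40600 CPM in MATIP 4-OHT. The 11 mature neutrophil markers summed to 219 to 223, 51100 to 54700, 766 to 909 and 35400 to 39000 CPM in the same order of groups, and 10 cell division markers to 3300 to 3460, 2940 to 3100, 3220, and 1610 to 1640 CPM. Eosinophil markers summed to at most 78.6, stromal markers to at most 26.8 and lymphoid markers to at most 0.877 CPM in any library, with Cd3e, Cd8a and Rag1 among those at 0. Of the cell types that make most lipid, hepatocyte markers summed to at most 0.0502 CPM, with Alb and Ttr at 0 in all libraries, and adipocyte markers to 9.78 to 141 CPM, nearly all from Fabp4, which macrophages also express, with Lep at 0. These are bulk RNA samples, in which fewer cells of a type and less RNA per cell cannot be told apart.

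Promoter sequence is shown for 4 members that span the range of responses: a mevalonate enzyme that rose in both lines (Hmgcs1), one that fell in MATIP cells (Mvk), the fatty acid synthase gene (Fasn) and an LXR target (Abca1). Each run is the RefSeq window on GRCm38.p6 from 250 bases before to 50 bases after the annotated start, written 5′ to 3′ in the direction of the gene. Capitals mark CCAAT on either strand (read as ATTGG when on the other strand), the core bound by NF-Y, a partner of the SREBPs, and TCACNCCAC on either strand, a form of the sterol regulatory element.
Hmgcs1 promoter (chr13:119690101-119690400, plus strand): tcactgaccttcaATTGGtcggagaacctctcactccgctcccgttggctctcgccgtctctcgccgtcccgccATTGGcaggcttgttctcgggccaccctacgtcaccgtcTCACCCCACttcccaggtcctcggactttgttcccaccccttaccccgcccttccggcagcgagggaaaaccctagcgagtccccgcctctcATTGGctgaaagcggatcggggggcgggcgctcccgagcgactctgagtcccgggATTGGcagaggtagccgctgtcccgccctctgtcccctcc
Mvk promoter (chr5:114444019-114444318, plus strand): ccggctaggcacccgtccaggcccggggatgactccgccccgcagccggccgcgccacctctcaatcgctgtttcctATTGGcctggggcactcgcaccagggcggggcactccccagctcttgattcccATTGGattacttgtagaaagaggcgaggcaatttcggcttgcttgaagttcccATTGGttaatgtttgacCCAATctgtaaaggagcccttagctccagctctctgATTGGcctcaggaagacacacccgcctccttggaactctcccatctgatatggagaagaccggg
Fasn promoter (chr11:120824498-120824797, minus strand): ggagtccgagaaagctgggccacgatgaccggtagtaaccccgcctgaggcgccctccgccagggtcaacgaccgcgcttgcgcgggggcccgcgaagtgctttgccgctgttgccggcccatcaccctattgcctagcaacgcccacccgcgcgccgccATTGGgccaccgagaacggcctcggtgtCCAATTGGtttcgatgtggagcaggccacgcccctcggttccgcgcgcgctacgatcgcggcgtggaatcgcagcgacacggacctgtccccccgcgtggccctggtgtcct
Abca1 promoter (chr4:53159846-53160145, minus strand): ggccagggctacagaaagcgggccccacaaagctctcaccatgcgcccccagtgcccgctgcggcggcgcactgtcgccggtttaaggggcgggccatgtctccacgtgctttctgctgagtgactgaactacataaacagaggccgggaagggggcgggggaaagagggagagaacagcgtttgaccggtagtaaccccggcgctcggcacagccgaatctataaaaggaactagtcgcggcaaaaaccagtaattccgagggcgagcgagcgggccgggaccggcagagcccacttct

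RefSeq windows were found for 28 of the 36 members. CCAAT occurred on at least 1 strand in the windows of 22 of these 28 genes (78.6%), against 41.1% of the 27025 genes with a window and 42.9% of the tested genes with one. Mvk held 5 matches, Hmgcs1 held 4, Fasn held 3, of which a pair overlaps on opposite strands, and Abca1 held none. TCACNCCAC occurred in 1.24% of all 32851 windows and in 1 member, Hmgcs1, at 137 bases before the start. The E-box form ATCACGTGA, which SREBPs can also bind, occurred in 0.317% of all windows, and the consensus DR4 repeat bound by LXR with its partner RXR in 0.0152%, both searched on both strands and found in none of the members' windows. The DR4 repeat was searched only in its exact consensus form, which is rare in the windows of all genes. Repeats that depart from this form were not searched, so the absence of a match does not show that the members' windows lack LXR sites. The sterol regulatory element and the E-box were likewise each searched in 1 form only. A window without a match to them may still hold an SREBP site. CCAAT stood in windows of members of both directions, in 11 of 13 members with a window that rose and in 11 of 15 that fell in MATIP cells with 4-OHT. In MAflox cells with 4-OHT it stood in 11 of 13 that rose and in 6 of 10 that fell. The shares of the directions were not tested against each other.

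With 4-OHT, fatty acid synthesis genes fell and the 4 genes placed in the LXR group rose in both lines, while the sterol enzymes went in both directions. In MAflox cells 17 members rose, 13 fell and 6 did not pass, where 65.2% of all tested genes changed, 33.1% upward and 32.1% downward. In MATIP cells 17 rose and 19 fell, where 76.1% of tested genes changed, 37.5% upward and 38.6% downward. With so many genes changed, the shares of members that passed are to be read against these backgrounds. The median log2 change over the members was 0.08 in MAflox and −0.19 in MATIP cells, and over all tested genes 0.02 and 0.00. Both treated libraries lay above both EtOH libraries for 19 members and below them for 14 in MAflox cells, and for 17 and 19 in MATIP cells. The share of all tested genes that separate in this way was not counted, so these counts have no background and say nothing particular about the members. Between the lines, 13 members rose in both, 12 fell in both, and 5 were called in opposite directions: Mvd, Tm7sf2, Nsdhl and Stard4 rose in MAflox and fell in MATIP cells, and Srebf2 fell in MAflox and rose in MATIP cells.

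**Figure D1:**
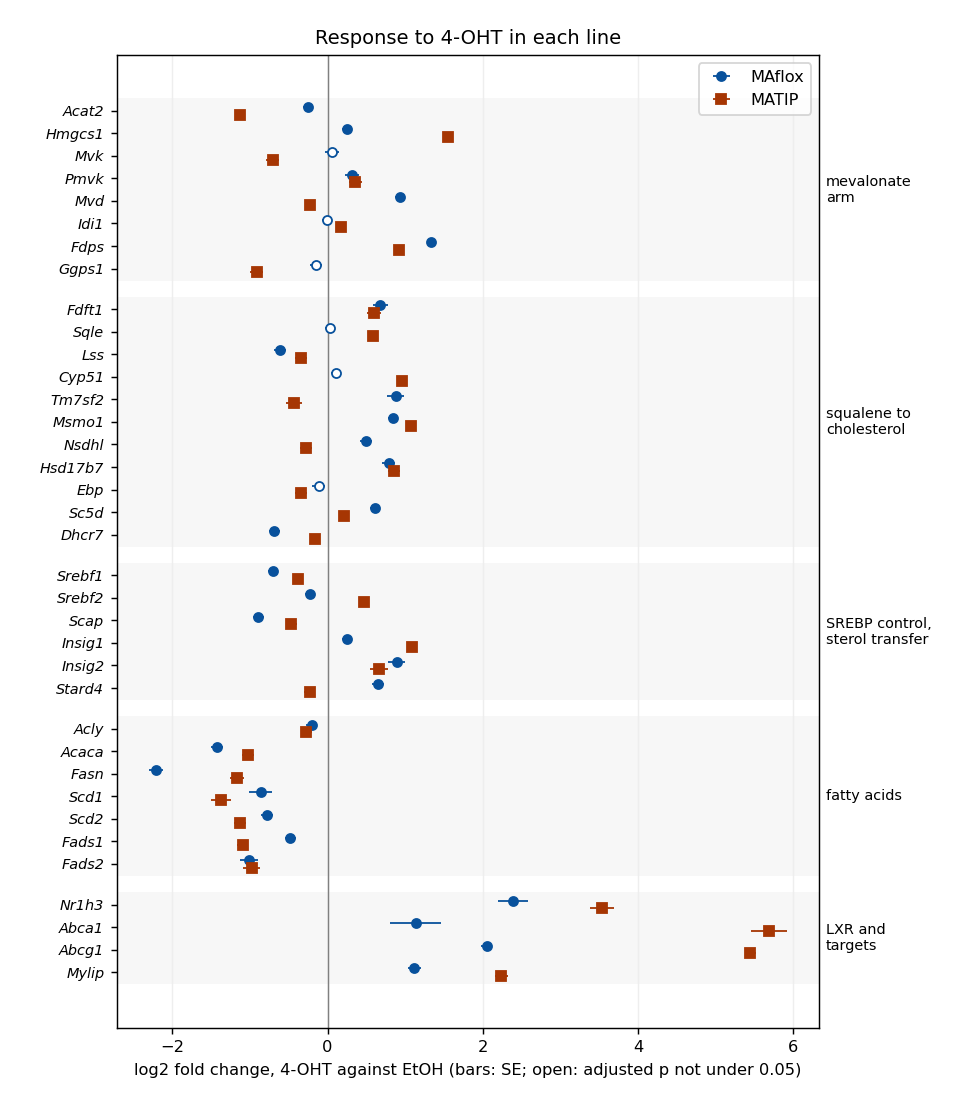
Log2 fold change with 4-OHT against EtOH for each of the 36 members in MAflox and MATIP cells, ordered by role; bars are ± 1 standard error and open points did not pass the test. The 7 fatty acid genes lie below 0 and the 4 LXR genes above 0 in both lines, and the sterol enzymes lie on both sides.

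Among the 8 genes of the mevalonate pathway, from acetyl-CoA to farnesyl and geranylgeranyl diphosphate, 4 rose and 1 fell in MAflox cells, and 4 rose and 4 fell in MATIP cells. Hmgcs1, HMG-CoA synthase, stood at 86.7 and 95.2 CPM in MAflox EtOH, 108 CPM in both MAflox 4-OHT libraries, 134 and 149 CPM in MATIP EtOH, and 416 and 417 CPM in MATIP 4-OHT. All treated libraries lay above the EtOH libraries of their line, far more so in MATIP cells. The log2 change was 0.25 ± 0.06 in MAflox (1.19-fold; edgeR adjusted p = 0.00167) and 1.56 ± 0.06 in MATIP cells (2.94-fold; edgeR adjusted p = 3.05e-14). Fdps, farnesyl diphosphate synthase, stood at 275 and 265 CPM in MAflox EtOH, 700 and 662 CPM in MAflox 4-OHT, 447 and 464 CPM in MATIP EtOH, and 841 and 878 CPM in MATIP 4-OHT. It was the member with the largest rise in MAflox cells outside the LXR group (2.52-fold; edgeR adjusted p = 1.53e-13), and it rose 1.89-fold in MATIP cells, again without overlap. Fdps shares 1124 exon bases with Gm43738 on its own strand, so its counts are uncertain there. Hmgcs1, Idi1, Ggps1, Lss, Cyp51 and Srebf1 each share 109 to 557 exon bases with a gene on the opposite strand.

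Mvd, which decarboxylates mevalonate diphosphate, stood at 47.1 and 47.8 CPM in MAflox EtOH and 88.8 and 92.0 CPM in MAflox 4-OHT, and at 93.6 and 104 CPM in MATIP EtOH and 84.9 CPM in both MATIP 4-OHT libraries. Treated libraries lay above the EtOH libraries in MAflox and below them in MATIP cells, and the treated libraries of both lines were close to each other. The log2 change was 0.93 ± 0.07 in MAflox cells (edgeR adjusted p = 2.40e-10) and −0.22 ± 0.06 in MATIP cells (edgeR adjusted p = 0.00405). The small fall in MATIP cells did not pass with DESeq2 (log2 −0.15, adjusted p = 0.0547) or with edgeR when MATIP EtOH replicate 2 was left out (−0.15, adjusted p = 0.0761), nor without MATIP 4-OHT replicate 1 (−0.18, adjusted p = 0.0584) or MATIP 4-OHT replicate 2 (−0.19, adjusted p = 0.0504). Acat2, the cytosolic acetoacetyl-CoA thiolase that opens the pathway, stood at 67.3 and 62.9 against 52.9 and 56.8 CPM in MAflox cells and at 97.0 and 97.7 against 45.2 and 43.7 CPM in MATIP cells, EtOH against 4-OHT. Treated libraries lay below the EtOH libraries in both lines, with a 1.19-fold fall in MAflox and a 2.19-fold fall in MATIP cells (edgeR adjusted p = 0.00273 and 7.47e-12). Acat2 shares a stretch of 1477 bases at 97.7% identity with Acat3, so reads of these genes may have been split between them.

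Of the remaining mevalonate genes, Mvk, mevalonate kinase, was at 0.06 ± 0.09 in MAflox cells, where it did not pass, and fell by 0.71 ± 0.09 on the log2 scale in MATIP cells, where both treated libraries (19.3 and 21.8 CPM) lay below both EtOH libraries (32.8 and 34.4 CPM). Ggps1, which makes geranylgeranyl diphosphate for protein prenylation, was at −0.15 ± 0.08 in MAflox, where it did not pass, and fell by 0.91 ± 0.08 on the log2 scale in MATIP cells. Pmvk, phosphomevalonate kinase, rose by 0.32 ± 0.09 and 0.36 ± 0.08, and the MAflox rise did not pass without MAflox 4-OHT replicate 1 (log2 0.22, edgeR adjusted p = 0.0721). Idi1, isopentenyl diphosphate isomerase, was at −0.01 ± 0.07 in MAflox cells with overlapping libraries. It rose by 0.17 ± 0.07 in MATIP cells, a call that did not pass without MATIP EtOH replicate 1 (log2 0.14, edgeR adjusted p = 0.123) or MATIP EtOH replicate 2 (0.18, edgeR adjusted p = 0.0511). Enzymes at neighbouring steps therefore changed in opposite directions in treated MATIP cells, with Hmgcs1 and Fdps higher and Acat2, Mvk and Ggps1 lower.

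Of the 11 genes that turn farnesyl diphosphate into squalene and then cholesterol, 6 rose and 2 fell in MAflox cells, and 6 rose and 5 fell in MATIP cells. Sqle, squalene epoxidase, stood at 90.4 and 96.4 CPM in MAflox EtOH and 94.5 and 96.1 CPM in MAflox 4-OHT, which overlapped. In MATIP cells it stood at 158 and 165 CPM with EtOH and 247 and 238 CPM with 4-OHT, without overlap. Its log2 change was 0.03 ± 0.06 in MAflox cells, which did not pass (edgeR adjusted p = 0.686), and 0.59 ± 0.06 in MATIP cells (edgeR adjusted p = 1.65e-08). Cyp51, lanosterol demethylase, was like it, at 0.11 ± 0.06 without passing and at 0.97 ± 0.06. Msmo1, the methylsterol monooxygenase of the next steps, rose by 0.85 ± 0.06 and 1.08 ± 0.06, and Hsd17b7, a ketoreductase of the same demethylation complex, rose by 0.79 ± 0.08 and 0.86 ± 0.08. Hsd17b7 stood at 24.6 and 27.3 CPM in MAflox EtOH, 48.1 and 41.7 CPM in MAflox 4-OHT, 52.0 and 58.6 CPM in MATIP EtOH, and 102 and 98.6 CPM in MATIP 4-OHT, with no overlap between treated and EtOH libraries of a line.

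Tm7sf2, a sterol reductase, and Nsdhl, a sterol dehydrogenase, were called in opposite directions in the lines. Tm7sf2 stood at 16.0 and 13.6 CPM in MAflox EtOH, 28.2 and 26.0 CPM in MAflox 4-OHT, 20.5 and 24.2 CPM in MATIP EtOH, and 16.4 and 16.9 CPM in MATIP 4-OHT. Its groups did not overlap in either line, with log2 changes of 0.88 ± 0.11 and −0.43 ± 0.11 (edgeR adjusted p = 5.68e-07 and 0.00114). It shares 532 exon bases with Vps51 on its own strand, so its counts are uncertain there. Nsdhl stood at 31.9 and 34.0 against 45.7 and 47.4 CPM in MAflox cells and at 50.4 and 55.8 against 42.6 and 45.0 CPM in MATIP cells, EtOH against 4-OHT. Here too treated libraries lay apart from EtOH libraries, above them in MAflox and below them in MATIP cells (log2 0.50 ± 0.08 and −0.28 ± 0.07). The fall of Nsdhl in MATIP cells did not pass without MATIP 4-OHT replicate 1 (log2 −0.20, edgeR adjusted p = 0.0671).

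At the end of the sterol route, Sc5d, which introduces a double bond into the sterol ring, rose by 0.61 ± 0.07 in MAflox and by 0.21 ± 0.07 in MATIP cells, the latter not passing without MATIP EtOH replicate 1 (log2 0.12, edgeR adjusted p = 0.163). Dhcr7, 7-dehydrocholesterol reductase, fell from 61.4 and 61.8 to 37.8 and 38.9 CPM in MAflox cells (log2 −0.68 ± 0.07). In MATIP cells it went from 96.0 and 107 to 91.3 and 89.6 CPM (log2 −0.17 ± 0.06, edgeR adjusted p = 0.0240). That call did not pass without any 1 of MATIP EtOH replicate 2, MATIP 4-OHT replicate 1, MATIP 4-OHT replicate 2, MAflox 4-OHT replicate 1 or MAflox 4-OHT replicate 2 (log2 −0.10, −0.14, −0.12, −0.13 and −0.13; edgeR adjusted p = 0.261, 0.138, 0.201, 0.0707 and 0.0696). It also did not pass with DESeq2 (log2 −0.09, adjusted p = 0.243), with RLE scaling, without the count filter, with the MATIP libraries fitted alone, or in the authors' deposited table (adjusted p = 0.163). Lss, lanosterol synthase, fell by 0.61 ± 0.08 and 0.34 ± 0.07 on the log2 scale. Ebp, a sterol isomerase, was at −0.12 ± 0.08 in MAflox cells with overlapping libraries and did not pass, though it did without MAflox EtOH replicate 2 (−0.24, edgeR adjusted p = 0.0225). In MATIP cells Ebp fell by 0.34 ± 0.08 on the log2 scale, but not without MATIP 4-OHT replicate 1 (−0.23, edgeR adjusted p = 0.0528). Fdft1, squalene synthase, read 0.68 ± 0.09 and 0.60 ± 0.09. It shares 774 exon bases with the cathepsin gene Ctsb on the opposite strand, whose level went from 163 and 168 to 555 and 556 CPM in MAflox cells and from 245 and 255 to 2917 and 2992 CPM in MATIP cells. No source used here says whether the counting was stranded, and the part of Ctsb reads in the Fdft1 counts was not tested.

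**Figure D2:**
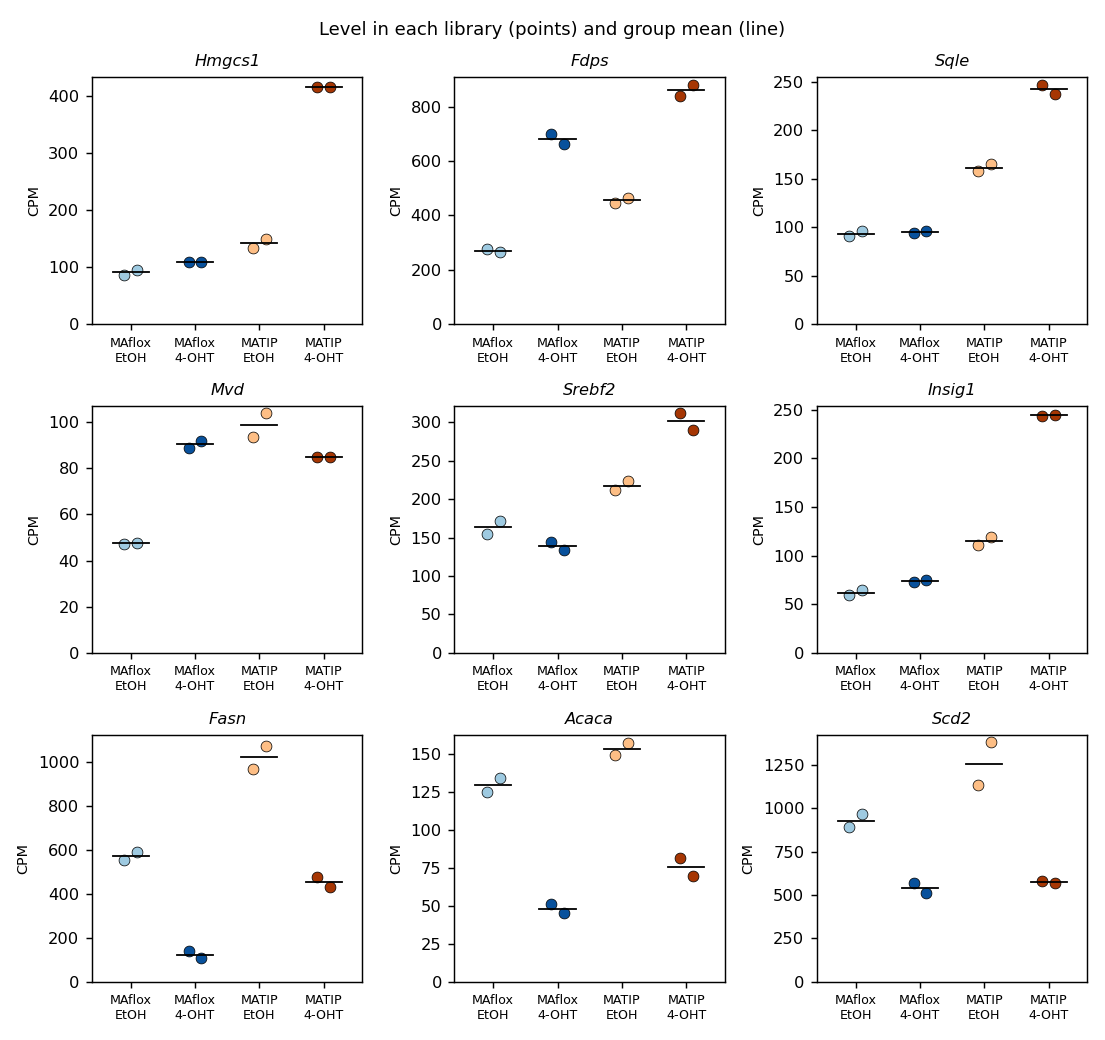
Level in each library (points, CPM, linear axis) and group mean (line) of 9 members in the 4 groups. Hmgcs1, Sqle and Insig1 are highest in MATIP 4-OHT, Mvd is lowest in MAflox EtOH, and Fasn, Acaca and Scd2 are lower with 4-OHT in both lines.

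Of the 6 genes of SREBP control and sterol transfer, 3 rose and 3 fell in each line. Srebf1, the gene of the SREBP that mainly drives fatty acid synthesis, stood at 138 and 137 CPM in MAflox EtOH, 88.7 and 79.8 CPM in MAflox 4-OHT, 146 and 153 CPM in MATIP EtOH, and 117 and 114 CPM in MATIP 4-OHT. Treated libraries were lower in both lines, with log2 changes of −0.70 ± 0.06 and −0.37 ± 0.06 (edgeR adjusted p = 5.95e-09 and 1.57e-05). Counts per gene do not separate the SREBP-1a and SREBP-1c transcripts of Srebf1. Scap, the SREBP escort, was at 81.4 and 78.5 against 46.3 and 39.9 CPM in MAflox cells and at 83.8 and 79.3 against 58.1 and 59.9 CPM in MATIP cells, EtOH against 4-OHT. It too was lower in every treated library (log2 −0.89 ± 0.07 and −0.47 ± 0.07), with 985 exon bases shared with 5830462I19Rik on the opposite strand. With the trend of fold changes on transcript length and GC content removed, the changes were −0.37 and −0.62 for Srebf1 and −0.55 and −0.72 for Scap.

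Srebf2, the gene of the SREBP that mainly drives sterol synthesis, stood at 155 and 172 CPM in MAflox EtOH, 144 and 134 CPM in MAflox 4-OHT, 212 and 223 CPM in MATIP EtOH, and 312 and 290 CPM in MATIP 4-OHT. It was the member that fell in MAflox (log2 −0.23 ± 0.06, edgeR adjusted p = 0.00410) and rose in MATIP cells (0.47 ± 0.06, edgeR adjusted p = 1.80e-06), with no overlap in either line. The MAflox fall did not pass without MAflox EtOH replicate 2 (log2 −0.15, edgeR adjusted p = 0.103) or MAflox 4-OHT replicate 2 (−0.16, edgeR adjusted p = 0.0891), and with the length and GC trend removed it turned to 0.21. Insig1, which retains the SREBPs and is itself an SREBP target, stood at 58.9 and 64.6 CPM in MAflox EtOH, 72.9 and 74.6 CPM in MAflox 4-OHT, 111 and 120 CPM in MATIP EtOH, and 244 CPM in both MATIP 4-OHT libraries. It rose in both lines without overlap, by 0.26 ± 0.06 and by 1.08 ± 0.06 on the log2 scale (edgeR adjusted p = 0.00153 and 4.74e-12). Insig2, its relative, had a lower level per length in MAflox EtOH (4.43 against 20.0 CPM per kilobase of exon). It stood at 15.2 and 15.6 against 29.1 and 28.0 CPM in MAflox cells and at 12.6 and 14.7 against 19.2 and 23.9 CPM in MATIP cells, EtOH against 4-OHT. Its rises were 0.89 ± 0.11 and 0.66 ± 0.11, again without overlap. Stard4, which carries cholesterol between membranes, stood at 72.4 and 82.2 against 118 and 125 CPM in MAflox cells and at 114 and 129 against 108 and 98.1 CPM in MATIP cells. The groups did not overlap in either line, above in MAflox (log2 0.65 ± 0.08, edgeR adjusted p = 3.55e-07) and below in MATIP cells (−0.23 ± 0.08, edgeR adjusted p = 0.00919). The MATIP fall of Stard4 did not pass with DESeq2 (−0.16, adjusted p = 0.0763), with RLE scaling (−0.16, edgeR adjusted p = 0.0622), or with edgeR when MATIP EtOH replicate 2 (−0.15, adjusted p = 0.118) was left out, nor without MATIP 4-OHT replicate 2 (−0.13, adjusted p = 0.224).

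All 7 genes of fatty acid synthesis and desaturation fell in both lines, with median log2 changes of −0.86 in MAflox and −1.09 in MATIP cells. Fasn, fatty acid synthase, stood at 554 and 593 CPM in MAflox EtOH, 139 and 109 CPM in MAflox 4-OHT, 972 and 1077 CPM in MATIP EtOH, and 479 and 433 CPM in MATIP 4-OHT. Treated libraries were far below the EtOH libraries of their line, and treated MATIP libraries still lay closer to untreated than to treated MAflox libraries. Fasn fell 4.63-fold in MAflox (log2 −2.21 ± 0.09, edgeR adjusted p = 8.01e-14) and 2.25-fold in MATIP cells (−1.17 ± 0.09, edgeR adjusted p = 2.62e-10). Acaca, acetyl-CoA carboxylase 1, which commits carbon to fatty acids, stood at 125 and 134 against 50.9 and 45.4 CPM in MAflox cells and at 149 and 157 against 81.1 and 69.5 CPM in MATIP cells, EtOH against 4-OHT. It fell 2.69-fold and 2.03-fold without overlap, and it shares a stretch of 6118 bases at 99.2% identity with Gm5182, between which reads may have been split. Acly, which cleaves citrate to give cytosolic acetyl-CoA, stood at 368 and 405 against 350 and 321 CPM in MAflox cells and at 520 and 587 against 467 and 449 CPM in MATIP cells. Its falls were the smallest of the 7 (log2 −0.20 ± 0.07 and −0.27 ± 0.07). The MAflox fall of Acly did not pass without MAflox EtOH replicate 2 (−0.13, edgeR adjusted p = 0.180) or MAflox 4-OHT replicate 2 (−0.12, edgeR adjusted p = 0.212), and was 0.00 with the length and GC trend removed.

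The stearoyl-CoA desaturases make monounsaturated fatty acids, and in MAflox EtOH Scd2 stood at 170 and Scd1 at 3.12 CPM per kilobase of exon. Scd2 stood at 894 and 964 against 570 and 512 CPM in MAflox cells and at 1134 and 1379 against 581 and 570 CPM in MATIP cells, EtOH against 4-OHT. Scd1, the paralog known from liver and fat, stood at 13.5 and 17.0 against 8.62 and 8.18 CPM in MAflox cells and at 48.3 and 70.3 against 23.9 and 22.0 CPM in MATIP cells. Both fell without overlap, Scd2 by 0.78 ± 0.08 and 1.13 ± 0.08 and Scd1 by 0.86 ± 0.15 and 1.37 ± 0.13 on the log2 scale in MAflox and MATIP cells. Fads1 and Fads2, the desaturases of polyunsaturated fatty acids, fell as well, Fads1 by 0.48 ± 0.07 and 1.09 ± 0.07 on the log2 scale. Fads2 stood at 34.2 and 40.1 against 19.9 and 16.9 CPM in MAflox cells and at 34.5 and 44.2 against 20.4 and 19.7 CPM in MATIP cells, falls of 2.01-fold and 1.97-fold with no overlap. With the length and GC trend removed, the MAflox falls were smaller for Fasn (log2 −1.33), Acaca (−0.83) and Scd2 (−0.49). Beside these falls the summed cell division markers went from 3300 to 3460 to 2940 to 3100 CPM in MAflox and from 3220 to 1610 to 1640 CPM in MATIP cells, with 5 of 10 markers falling and 2 rising in MAflox and 9 of 10 falling in MATIP cells, and their part in the falls was not tested.

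All 4 genes placed in the LXR group, Nr1h3, Abca1, Abcg1 and Mylip, rose in both lines, with median log2 changes of 1.59 and 4.49. The group is not a full list of LXR targets, and members placed under other roles are not counted in it. Among those members Srebf1, Scd1 and Fasn fell in both lines, so the shared rise holds only for the 4 genes as grouped here. Nr1h3, which encodes LXR alpha, stood at 0.727 and 0.760 CPM in MAflox EtOH, 3.93 and 3.87 CPM in MAflox 4-OHT, 2.22 and 1.88 CPM in MATIP EtOH, and 23.7 and 23.4 CPM in MATIP 4-OHT. The groups did not overlap, and the rises were 5.22-fold and 11.6-fold (log2 2.39 ± 0.19 and 3.53 ± 0.15; edgeR adjusted p = 2.26e-09 and 8.87e-14). Abcg1, the transporter that passes cholesterol to high-density lipoprotein, stood at 19.6 and 21.4 CPM in MAflox EtOH, 89.4 and 80.9 CPM in MAflox 4-OHT, 29.8 and 27.9 CPM in MATIP EtOH, and 1272 and 1245 CPM in MATIP 4-OHT. It rose 4.15-fold in MAflox and 43.6-fold in MATIP cells (log2 2.05 ± 0.07 and 5.45 ± 0.07; edgeR adjusted p = 5.08e-15 and 3.82e-21). Abca1, the transporter that loads lipid-poor apolipoprotein, stood at 0.250 and 0.418 CPM in MAflox EtOH, 0.761 and 0.737 CPM in MAflox 4-OHT, 0.304 and 0.452 CPM in MATIP EtOH, and 20.7 and 19.4 CPM in MATIP 4-OHT. In every group but the last it rested on few reads, 11 to 36 counts per library against 875 and 983. It rose 51.6-fold in MATIP cells (log2 5.69 ± 0.23, edgeR adjusted p = 3.19e-14). The MAflox change of 1.13 ± 0.33 (edgeR adjusted p = 0.00512) did not pass without MAflox EtOH replicate 1 (log2 0.84, adjusted p = 0.0566) or in the authors' deposited table (adjusted p = 0.171). Mylip, a ubiquitin ligase that LXR switches on, stood at 12.2 and 11.4 against 26.4 and 24.8 CPM in MAflox cells and at 15.7 and 16.1 against 78.0 and 72.5 CPM in MATIP cells, rises of 2.17-fold and 4.72-fold.

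The 4 responses of the LXR group were larger in MATIP than in MAflox cells, by 1.15 ± 0.26 for Nr1h3, 4.56 ± 0.46 for Abca1, 3.40 ± 0.10 for Abcg1 and 1.12 ± 0.12 for Mylip on the log2 scale, each passing the test of the difference. Macrophage markers moved the same way, with 10 of 13 rising and 1 falling in MAflox cells and 12 of 13 rising in MATIP cells. Their summed level of 38900 to 40600 CPM in MATIP 4-OHT was above the 7760 CPM of MAflox 4-OHT, whereas the neutrophil markers were higher in MAflox 4-OHT. The part of these cells in the LXR group's levels was not tested.

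**Figure D3:**
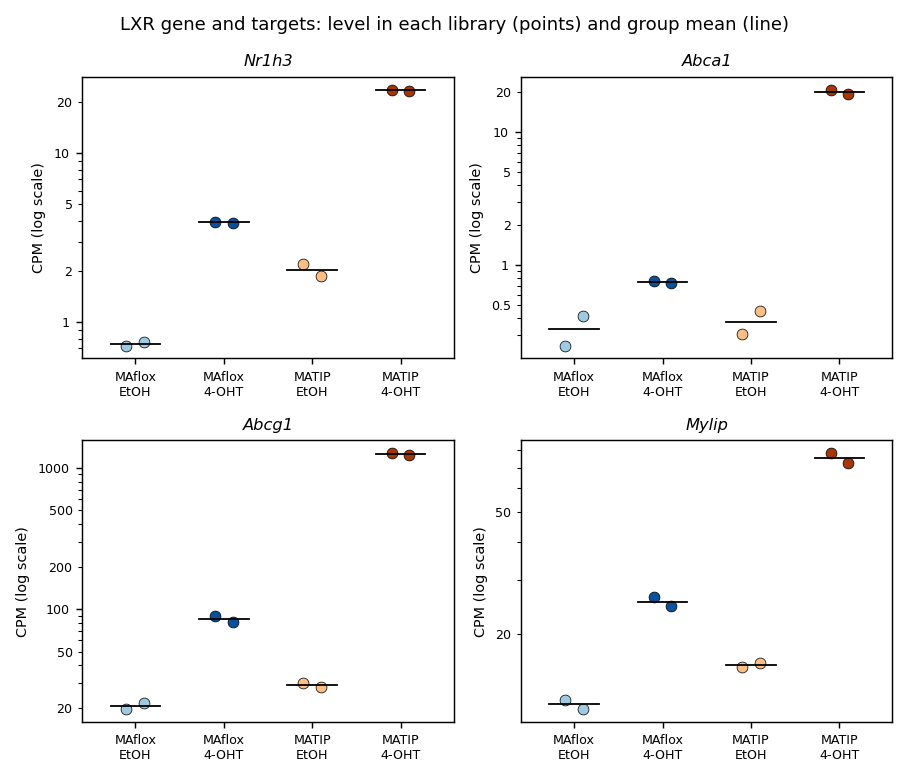
Level in each library (points, CPM, log axis) and group mean (line) of Nr1h3, Abca1, Abcg1 and Mylip in the 4 groups. All 4 genes are highest in MATIP 4-OHT, where Abcg1 reached 1272 and 1245 CPM.

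The test of the difference between the responses, MATIP minus MAflox, passed for 28 members, 16 with a higher and 12 with a lower value in MATIP cells, where 61.9% of all tested genes passed, 28.3% upward and 33.6% downward. The median over the members was 0.05, against −0.03 over all tested genes. Outside the LXR group the largest positive differences were those of Hmgcs1 (1.30 ± 0.09), Fasn (1.04 ± 0.12), Cyp51 (0.86 ± 0.09) and Insig1 (0.83 ± 0.09). The largest negative ones were those of Tm7sf2 (−1.31 ± 0.15), Mvd (−1.15 ± 0.09), Acat2 (−0.88 ± 0.09) and Stard4 (−0.88 ± 0.11). In MAflox cells fold changes of all genes followed transcript length, with a median log2 change of 0.31 in the shortest and −0.37 in the longest of 5 equal groups of genes, against −0.03 and 0.10 in MATIP cells. With the trend on length and GC content removed, the difference for Fasn, whose transcript has 10050 bases, turned from 1.04 to −0.30, as its changes went from −2.21 to −1.33 in MAflox and from −1.17 to −1.67 in MATIP cells. The differences for Acaca, Scap, Srebf1, Srebf2 and Lss also turned, from 0.40, 0.42, 0.33, 0.70 and 0.27 to −0.41, −0.17, −0.25, −0.02 and −0.33. Those of Hmgcs1 (1.41), Abcg1 (2.78), Abca1 (3.77), Sqle (0.35), Msmo1 (0.37) and Scd2 (−0.76) kept their sign. Among changes within a line, the corrected values in MAflox cells were 0.07 for Pmvk, −0.18 for Lss, −0.37 for Acat2 and 1.72 for Abca1, and in MATIP cells 0.29 for Idi1 and 0.19 for Srebf2. The falls of Fasn, Acaca, Scd1, Scd2, Fads1 and Fads2 within each line kept their sign as well.

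In the EtOH controls, sterol and fatty acid genes stood higher in MATIP than in MAflox cells. There 29 of 36 members were higher in MATIP, none was lower by the test and 7 did not pass, where 32% of all tested genes differed, 20.3% upward and 11.7% downward. The median log2 difference was 0.65 over the members and 0.02 over all tested genes. With DESeq2 the counts were also 29 higher and 0 lower, and at an unadjusted edgeR p under 0.05 the count lower was 0 as well. Both MATIP libraries lay above both MAflox libraries for 31 members and below them for 1, Insig2. Here too the share of all tested genes that separate in this way was not counted, and the 20.3% and 11.7% are shares of test calls, a different measure. The mevalonate genes were higher in 7 of 8 and the later sterol genes in 10 of 11, with median log2 differences of 0.67 and 0.77. Hsd17b7 (1.09 ± 0.08) and Mvd (1.06 ± 0.06) had the largest of these, and Hmgcs1, Fdps and Sqle were at 0.64 ± 0.06, 0.75 ± 0.06 and 0.79 ± 0.06.

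The regulators did not all follow in EtOH. Insig1 (0.90 ± 0.06), Stard4 (0.65 ± 0.08) and Srebf2 (0.42 ± 0.06) were higher in MATIP cells, while Srebf1 (0.12 ± 0.06), Scap (0.03 ± 0.07) and Insig2 (−0.17 ± 0.11) did not pass, with edgeR adjusted p of 0.129, 0.805 and 0.271. Among fatty acid genes 6 of 7 were higher, most of all Scd1 at 3.89-fold (log2 1.96 ± 0.14, edgeR adjusted p = 1.85e-09), the largest difference of any member, and Fasn at 0.84 ± 0.09. Acaca was higher by 0.24 ± 0.07, which did not pass without MAflox EtOH replicate 1 (0.19, edgeR adjusted p = 0.154) or MATIP EtOH replicate 2 (0.20, edgeR adjusted p = 0.0889). With the length and GC trend removed, the EtOH differences were 0.15 for Acaca and 0.27 for Srebf2. Of the LXR group, Nr1h3 was 2.73-fold higher (1.45 ± 0.21, edgeR adjusted p = 2.29e-05), Abcg1 and Mylip were higher by 0.49 ± 0.07 and 0.43 ± 0.09, and Abca1 overlapped and did not pass. Beside this, the summed macrophage markers were 1070 to 1120 CPM in MAflox EtOH and 1480 to 1500 CPM in MATIP EtOH, and the cell division markers 3300 to 3460 and 3220 CPM. The macrophage markers did not all go the same way between these groups. Ctsd stood at 502.8 and 510.1 CPM in MAflox EtOH and 712.9 and 735.5 CPM in MATIP EtOH, but Ccr2 at 135.4 and 146.8 against 70.3 and 63.6 CPM. The floxed Tip60 alleles, Cre-ERT2 and any other difference between these lines cannot be told apart in this comparison.

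**Figure D4:**
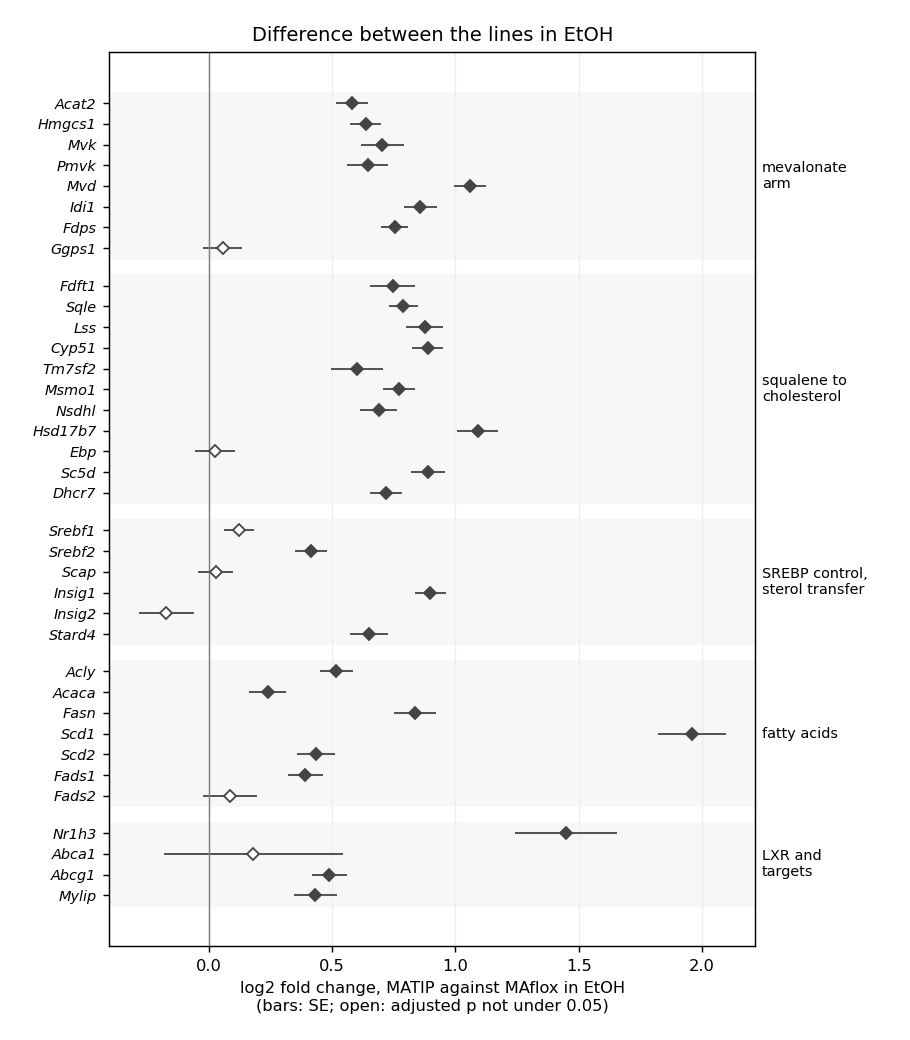
Log2 difference between MATIP and MAflox cells in EtOH for each of the 36 members, ordered by role, with bars of ± 1 standard error; open points did not pass the test. The members lie almost all above 0, and Scd1 at 1.96 is farthest from it.

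Levels per kilobase of exon rank the members within a group, with no test between neighbouring ranks. In MATIP EtOH the highest were Scd2 (230), Fdps (108), Acly (105) and Fasn (93.6 CPM per kilobase), and the lowest Nr1h3 (0.814) and Abca1 (0.0365). In MATIP 4-OHT the order had shifted to Fdps (204), Abcg1 (172), Scd2 (105) and Hmgcs1 (90.6), with Abcg1 moving from rank 33 to rank 2 of 36. In MAflox 4-OHT the highest were Fdps (162), Scd2 (99.0) and Acly (63.5), and Fasn went from rank 4 in MAflox EtOH to rank 21. Acat2 was at rank 6 in both EtOH groups and at rank 9 in MAflox 4-OHT and 22 in MATIP 4-OHT.

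Other genes of these pathways were counted for comparison. Their counts are to be read against all tested genes, of which 33.1% rose and 32.1% fell in MAflox cells. In MATIP cells 37.5% rose and 38.6% fell, and in EtOH 20.3% were higher and 11.7% lower in MATIP cells. Of 13 further sterol genes 3 rose and 8 fell in MAflox and 5 rose and 6 fell in MATIP cells, with 7 higher and 0 lower in MATIP cells in EtOH (1 lower, Pdss1, at an unadjusted edgeR p of 0.0331). Npc1, which moves cholesterol out of lysosomes, had the largest rise of this list in MATIP cells (2.09 ± 0.06). In MAflox cells Npc1 had a small fall that only just passed (−0.15 ± 0.06, edgeR adjusted p = 0.0484), with no alternative fit given here. Its partner Npc2 rose in both (0.91 ± 0.05 and 0.77 ± 0.05). Pdss1, which makes the side chain of coenzyme Q, had the largest fall in MATIP cells (−1.08 ± 0.11).

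Of 21 further fatty acid genes 8 rose and 8 fell in MAflox and 8 rose and 9 fell in MATIP cells. The uniform fall of the 7 core genes did not extend to these. Their counts lay near the shares of all tested genes, 33.1% up and 32.1% down in MAflox and 37.5% up and 38.6% down in MATIP cells, and show nothing particular to this list. Elovl6, which elongates the product of Fasn, fell in both lines (−1.52 ± 0.07 and −2.90 ± 0.07), and Acsl1, which activates fatty acids for use, rose in both (1.54 ± 0.06 and 2.59 ± 0.06). Acss2, which makes acetyl-CoA from acetate, rose in MAflox cells (1.59 ± 0.19) and did not pass in MATIP cells (0.10 ± 0.18). Fads3 fell in MAflox (−1.89 ± 0.38) and rose in MATIP cells (1.79 ± 0.34). Mlx, a partner of carbohydrate-responsive factors, rose by 0.61 ± 0.06 in MAflox and fell by 0.90 ± 0.06 on the log2 scale in MATIP cells. In EtOH 9 of the 21 were higher in MATIP cells and 1, Elovl7, was lower (−0.52 ± 0.08), where 20.3% of all tested genes were higher and 11.7% lower.

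Of 6 further LXR genes 4 rose and 1 fell in MAflox cells, and 5 rose and 1 fell in MATIP cells. Over all tested genes 33.1% rose and 32.1% fell in MAflox cells, and 37.5% rose and 38.6% fell in MATIP cells. Pltp, the phospholipid transfer protein gene, had the largest fitted rises, but these rest on very few EtOH reads: it stood at 0 and 0.0380 against 0.296 and 0.415 CPM in MAflox cells and at 0 and 0.0837 against 2.42 and 2.25 CPM in MATIP cells, so no fold is given. Rxra, the LXR partner receptor, rose by 1.66 ± 0.16 and 3.33 ± 0.13, whereas its relative Rxrb fell in both lines (−0.23 ± 0.07 and −0.60 ± 0.07). Smpdl3a, a phosphodiesterase known as an LXR target, was higher in MATIP than in MAflox cells in EtOH (1.15 ± 0.12).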

How the data were processed

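RNA was measured in 8 libraries, 2 in each of 4 groups taken from the sample titles. The deposited table gives raw read counts for each gene symbol, whole numbers with no normalization, and has 23 empty columns (0 filled ones lack a sample). The submitters' processing notes name the mm10 build, DESeq2, featureCounts 1.6.4, HISAT2 2.1.0 and Trimmomatic 0.38.0. Whether counting used strand, which annotation it used and how multiply mapped reads were handled is not given in the sources used here. A second table holds the authors' log2 fold changes and, per the file headers, the authors' adjusted p-values. Of the members' 30 edgeR calls in MAflox cells 29 also pass there in the same direction, and 35 of 36 in MATIP cells.

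Genes passing filterByExpr (minimum count 10, minimum total 15) were tested with edgeR 4.0.16 in R 4.3.3 by the quasi-likelihood test with TMM scaling and 1 coefficient per group over all 8 libraries (4 residual and 14.3 prior degrees of freedom, biological coefficient of variation 5.98%). P-values were adjusted by Benjamini-Hochberg over 13722 genes in each contrast. The standard error is the log2 change over the square root of F. CPM uses TMM-scaled totals of the tested genes. Counts of replicates differed beyond sampling noise, with chi-square per degree of freedom between 7.09 and 13.1. Exon lengths, overlaps and positions came from GENCODE M21 on mm10. The trend of log2 changes on transcript length and GC content was fitted by robust loess. Counts simulated for the MATIP contrast (13345 genes) were tested first: 35 of 48 genes changed by 0.5 on the log2 scale were called, 43 of 50 at 1, 45 of 49 at 2, 49 of 49 at 4, and 12 of 13149 unchanged genes. Only 200 genes were changed in the simulation, all in MATIP 4-OHT, whereas 76.1% of tested genes changed in the real MATIP contrast. Scaling and false calls under so wide a change were therefore not probed.

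The members and lists were chosen with earlier results of these data known. Values in every library are given for the 3 largest called rises and falls of each contrast with a mean of at least 1 CPM, the regulators, 8 key enzymes and members called in opposite directions. Of the other pathway genes, the largest called rise and fall of each list and contrast could be named, and 1 such gene is not reported here. Alternatives were DESeq2 1.42.0, RLE scaling, no count filter, the compared groups alone, a replicate block, the trend removed, and each library left out.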

Additional observations from a re-analysis of the deposited data

Results flagged for a closer look

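The 4-OHT response of 28 members differed between the lines by the interaction test in edgeR (Benjamini-Hochberg adjusted over all genes), where 61.9% of all tested genes did. Values are the MATIP minus the MAflox response on the log2 scale. Among mevalonate genes the response in MATIP cells was higher for Hmgcs1 (1.30) and lower for Acat2 (−0.88), Mvk (−0.77), Mvd (−1.15), Fdps (−0.42) and Ggps1 (−0.76). Among later sterol genes it was higher for Sqle (0.56), Lss (0.27), Cyp51 (0.86), Msmo1 (0.23) and Dhcr7 (0.52) and lower for Tm7sf2 (−1.31), Nsdhl (−0.78) and Sc5d (−0.40). Among regulators it was higher for Srebf1 (0.33), Srebf2 (0.70), Scap (0.42) and Insig1 (0.83) and lower for Stard4 (−0.88). Among fatty acid genes it was higher for Acaca (0.40) and Fasn (1.04) and lower for Scd1 (−0.51), Scd2 (−0.35) and Fads1 (−0.62). For the LXR group it was higher for Nr1h3 (1.15), Abca1 (4.56), Abcg1 (3.40) and Mylip (1.12). With the length and GC trend removed, 6 of the 16 higher values turned negative, those of Fasn (−0.30), Acaca (−0.41), Lss (−0.33), Srebf1 (−0.25), Scap (−0.17) and Srebf2 (−0.02).

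Some of these did not pass under other settings or with 1 library left out. The difference for Scd1 did not pass with RLE scaling (−0.44, edgeR adjusted p = 0.0729) or DESeq2 (−0.43, adjusted p = 0.0805), nor without MAflox EtOH replicate 1 (−0.37, edgeR adjusted p = 0.124), MAflox 4-OHT replicate 1 (−0.44, 0.162) or 2 (−0.53, 0.0897), MATIP EtOH replicate 2 (−0.22, 0.263), or MATIP 4-OHT replicate 1 (−0.54, 0.0628) or 2 (−0.43, 0.139). That for Scd2 did not pass without MAflox 4-OHT replicate 1 (−0.24, 0.109) or MATIP EtOH replicate 2 (−0.21, 0.0546). That for Lss did not pass without MAflox EtOH replicate 2 (0.20, 0.171), MAflox 4-OHT replicate 1 (0.28, 0.0775) or 2 (0.30, 0.0545), MATIP EtOH replicate 1 (0.15, 0.248) or MATIP 4-OHT replicate 2 (0.28, 0.0704). That for Msmo1 did not pass without MAflox EtOH replicate 1 (0.22, 0.0850) or 2 (0.23, 0.0740), MAflox 4-OHT replicate 2 (0.25, 0.0509), MATIP EtOH replicate 1 (0.14, 0.210) or MATIP 4-OHT replicate 2 (0.23, 0.0689). In each parenthesis the second value is the adjusted p, from edgeR unless DESeq2 is named. The differences for Idi1 and Ebp did not pass (0.18 and −0.23), but Idi1 did with RLE scaling (0.25, 0.0252), with DESeq2 (0.25, 0.0300) and without MAflox 4-OHT replicate 2 (0.29, 0.0121), and Ebp without MAflox EtOH replicate 1 (−0.37, 0.00872).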

How the results depend on the processing

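Counts of members called stayed within 1.5 times of the main count under each alternative that gives calls, which removal of the length and GC trend does not. With a library left out, 16 to 17 members rose and 11 to 13 fell in MAflox cells, 15 to 17 and 15 to 19 in MATIP cells, 14 to 16 and 10 to 12 passed in the difference, and 28 to 29 were higher and 0 lower in EtOH. Median log2 changes ranged from 0.06 to 0.13 in MAflox, −0.27 to −0.12 in MATIP, −0.02 to 0.18 in the difference and 0.58 to 0.72 in EtOH. Same-numbered libraries did not deviate together (correlation −0.002 in MAflox and −0.039 in MATIP), and with a replicate block the counts were again 17 and 13, 17 and 19, 16 and 12, and 29 and 0, with no call changed. Over 1980 recomputed member values, 50 calls were lost and 5 gained, 8 called values changed sign, and 42 values called in neither fit changed sign. All 8 came from the fit with the length and GC trend taken out: in MAflox Srebf2 went to 0.21 and Acly to 0.0034, and in the difference Lss went to −0.33, Srebf1 to −0.25, Srebf2 to −0.0202, Scap to −0.17, Acaca to −0.41 and Fasn to −0.30, with a median of −0.21 over the members. A further 18 called values moved by more than 1.5 times and kept their sign under this correction, such as Pmvk in MAflox (0.07) and Lss in MAflox (−0.18). The cause was not tested. RLE scaling moved the MATIP median of all genes by 0.07. Depth limits Abca1, with 11 to 36 counts per library outside MATIP 4-OHT.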
